A study of Mus musculus with 32 samples.

Results

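The genes described here carry provisional names: a RIKEN clone name ending in Rik, or a predicted-gene name made of Gm and a number. Every row with such a symbol was taken from the gene tables of male inguinal, female inguinal and male perigonadal fat and of male liver, which gave 105 members of the 2508 genes listed in any table. The tables hold 42 members among 1074 genes in male inguinal fat, 35 among 790 in female inguinal fat, 60 among 1488 in male perigonadal fat and 1 among 37 in male liver.

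Such names were given to full-length mouse cDNA clones and to computed gene models before a function was known. Many of them turned out to be long non-coding RNAs, which are transcribed and often polyadenylated like messenger RNAs but encode no protein, and which can lie antisense to or beside a coding gene. Others have since been given protein names, so that the older symbol hides an enzyme, a hormone or a transcriptional regulator. BCL6 is a zinc-finger repressor that binds DNA elements resembling those of STAT factors.

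The study compared gene expression in mice with and without BCL6 in adipocytes. AKO mice carried Bcl6 fl/fl alleles and Adipoq-Cre, a recombinase driven by the adiponectin promoter of adipocytes, and WT mice carried Bcl6 fl/fl without Cre. All were C57BL/6 and all had loxP-flanked Bcl6, and no group had Cre without it, so deletion and Cre cannot be told apart. AKO and WT had 4 mice each for male inguinal fat, female inguinal fat, male perigonadal fat and male liver, in all 8 groups of 4. Poly(A) RNA of whole tissue was measured, so fewer cells of a type and less RNA per cell cannot be told apart. By their animal numbers, the males gave both fat depots, while females and liver came from other mice.

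The authors deposited only the genes they had called at an adjusted p under 0.05: 8.56% of 12554 genes tested in male inguinal fat, 5.83% of 13546 in female inguinal fat, 11.1% of 13361 in perigonadal fat and 0.323% of about 11441 in liver. Every member had therefore passed the authors' test, and the edgeR quasi-likelihood tests below, run on the same libraries, are not independent of that choice. How many provisional names were tested and not called is not known here. Counts per library were held for both inguinal sets and liver. Counts in the listed genes ran between 592820 and 2603509 per library in male inguinal fat and between 864592 and 4072659 in female inguinal fat. In liver they ran between 97314 and 358660, and whole-library depth is unknown. By the recovered size factors, every female AKO library (1.15 to 1.59) was deeper than every female WT library (0.402 to 1.02). In male inguinal fat the factors ran from 0.760 to 1.74 in AKO and from 0.373 to 1.16 in WT. Depth thus went partly with genotype in male inguinal fat and wholly in female inguinal fat. Bcl6 itself was listed in female inguinal fat alone, at 2618, 2295, 2800 and 2555 normalized counts in AKO and 1442, 1176, 988 and 1004 in WT. These counts cover the gene as a whole and not its deleted exons, so they check no label, and AKO means labelled AKO throughout. One label field of AKO liver replicate 4 names WT perigonadal fat while its title, tissue and genotype say AKO liver. Tissue identity could not be checked, because markers appear only when called: 1 of 10 adipocyte markers was listed in male inguinal, 3 in female inguinal and 2 in perigonadal fat, and 0 of 6 hepatocyte markers in liver. Markers of other cell types were listed too: 2 of 7 epithelial, 2 of 4 mesothelial and 2 of 4 fibroblast markers were listed lower in perigonadal fat, 3 of 7 macrophage markers were listed higher in female inguinal fat, and 1 of 4 mesothelial markers (Lrrn4) was listed higher in both inguinal sets. In male inguinal fat 1 of 7 macrophage markers (Cd14, -0.38) and 1 of 4 muscle markers (Acta1, -0.99) were listed lower and 1 of 4 endothelial markers (Pecam1, 0.20) higher, as log2 folds of the authors' deposited table. Their part in the members was not tested.

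Of the 105 members, 64 are protein coding, 38 are non-coding and 3 are pseudogenes in the mouse annotation. The class is that of GENCODE where it has the gene, and RefSeq differs for some members. Counted here as coding, 2900056M20Rik and D930048N14Rik are non-coding in RefSeq and 2010001E11Rik is a pseudogene there. Gm11837, counted as non-coding, is coding in RefSeq. The 81 Rik names comprise 50 coding genes, 28 non-coding genes and 3 pseudogenes, and the 24 Gm names comprise 14 coding and 10 non-coding genes. For 50 members (39 Rik and 11 Gm) RefSeq now has another symbol. Protein coding members were mostly lower in AKO: 10 of 27 were higher in male inguinal fat, 6 of 16 in female inguinal fat and 14 of 41 in perigonadal fat. Of the non-coding members, 8 of 14, 9 of 17 and 9 of 19 were higher in the same 3 tables. Members were listed at lower levels than the other genes. The median of the authors' mean normalized count per kilobase of exon was 56.8 in members and 138 in other listed genes of male inguinal fat, 32.3 and 188 in female inguinal fat, and 98.0 and 208 in perigonadal fat, by the authors' deposited tables. Among members, the non-coding ones had the lower median level per kilobase in each fat table, at 28.1, 31.4 and 35.1, against 118, 51.5 and 119 for coding members in male inguinal, female inguinal and perigonadal fat. Their folds were the larger ones, with median absolute log2 folds of 0.66, 0.82 and 0.63 for non-coding and 0.51, 0.68 and 0.52 for coding members in the authors' deposited tables. A gene with fewer reads needs a larger fold to be listed, so these folds show what was called and not how all provisional genes behave.

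**Figure D1:**
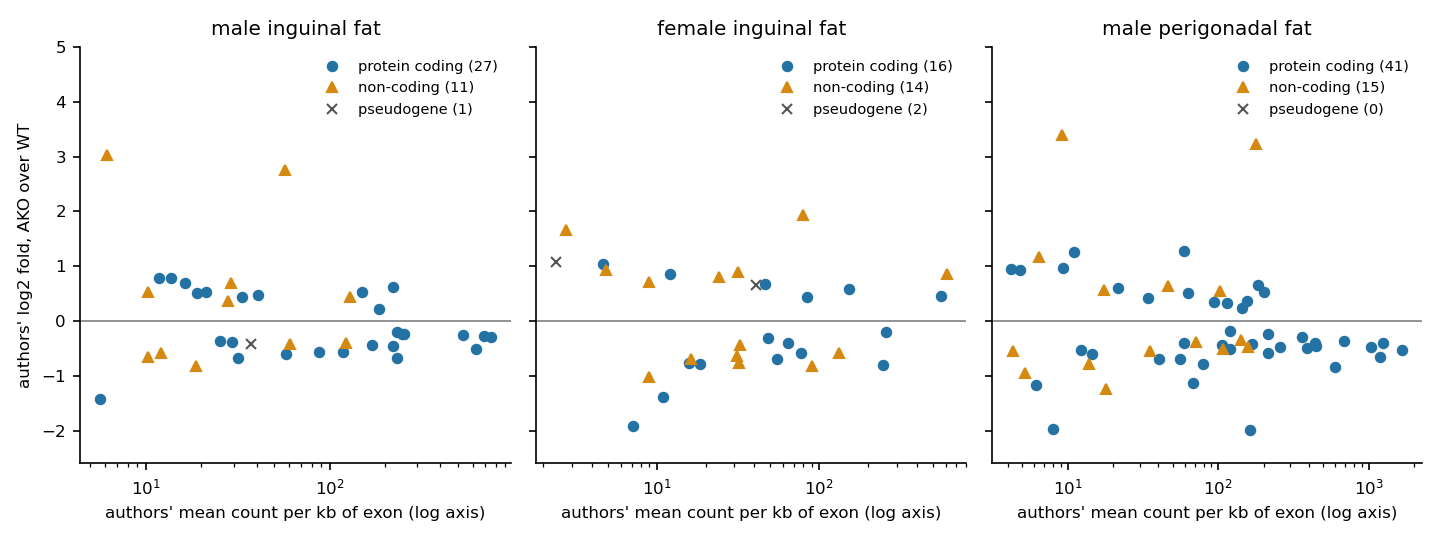
Authors' mean normalized count per kilobase of exon (x axis, logarithmic) against the authors' log2 fold of AKO over WT (y axis) for the listed members with a known exon length, 1 panel for each fat table. Circles are protein coding genes, triangles non-coding genes and crosses pseudogenes; in male inguinal fat the median level was 28.1 for non-coding and 118 for coding members.

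Listed members were more often lower than higher in AKO in the 2 male depots, and split nearly evenly in female inguinal fat. In male inguinal fat 18 members were listed higher and 24 lower, where 53.1% of all 1074 listed genes were higher and 46.9% lower. The female inguinal table held 17 higher and 18 lower members, where 54.9% of listed genes were higher and 45.1% lower. The perigonadal table held 23 higher and 37 lower members, where 51% of listed genes were higher and 49% lower. The median authors' log2 fold of the members was -0.25, -0.21 and -0.39, against 0.23, 0.30 and 0.21 over all listed genes of male inguinal, female inguinal and perigonadal fat. Only called genes are listed, so few folds lie near 0 and a median mainly shows which direction holds the majority. The female median of the members is the fold of 1 gene, 2310067B10Rik, the smallest fall in a near-even split. These medians are therefore no measure of a shift of the members. Folds of at least 1.5 were held by 16 of 42 members in male inguinal fat (29.7% of all listed genes), 27 of 35 in female inguinal fat (42.5%) and 27 of 60 in perigonadal fat (34.9%). At that size the members were split otherwise. They had 9 higher and 7 lower in male inguinal, 15 and 12 in female inguinal and 13 and 14 in perigonadal fat. All listed genes of that size were split 203 and 116, 172 and 164, and 256 and 264 in the same tables.

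With edgeR, 20 of 42 members passed an adjusted p of 0.05 in male inguinal fat, 9 higher and 11 lower, where 60.6% of all listed genes passed (34.1% higher and 26.5% lower). Among female inguinal members 14 of 35 passed, 10 higher and 4 lower, where 41.3% of listed genes passed (26.7% higher and 14.6% lower). The split depends on how libraries are scaled. With DESeq2 size factors computed on the listed genes it was 6 higher and 23 lower in males and 9 higher and 13 lower in females. The same factors moved the median edgeR log2 fold of all listed genes from 0.23 to 0.15 in males and from 0.30 to 0.15 in females. Counts of all listed genes that passed under the alternatives are not given, so these changes cannot be called particular to the members. Leaving out 1 library gave between 5 and 7 higher and between 6 and 12 lower in males, and between 5 and 12 higher and between 2 and 6 lower in females. AKO and WT libraries did not overlap for 37 of 42 members in males (90.8% of listed genes) and for 30 of 35 in females (89.1%).

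**Figure D2:**
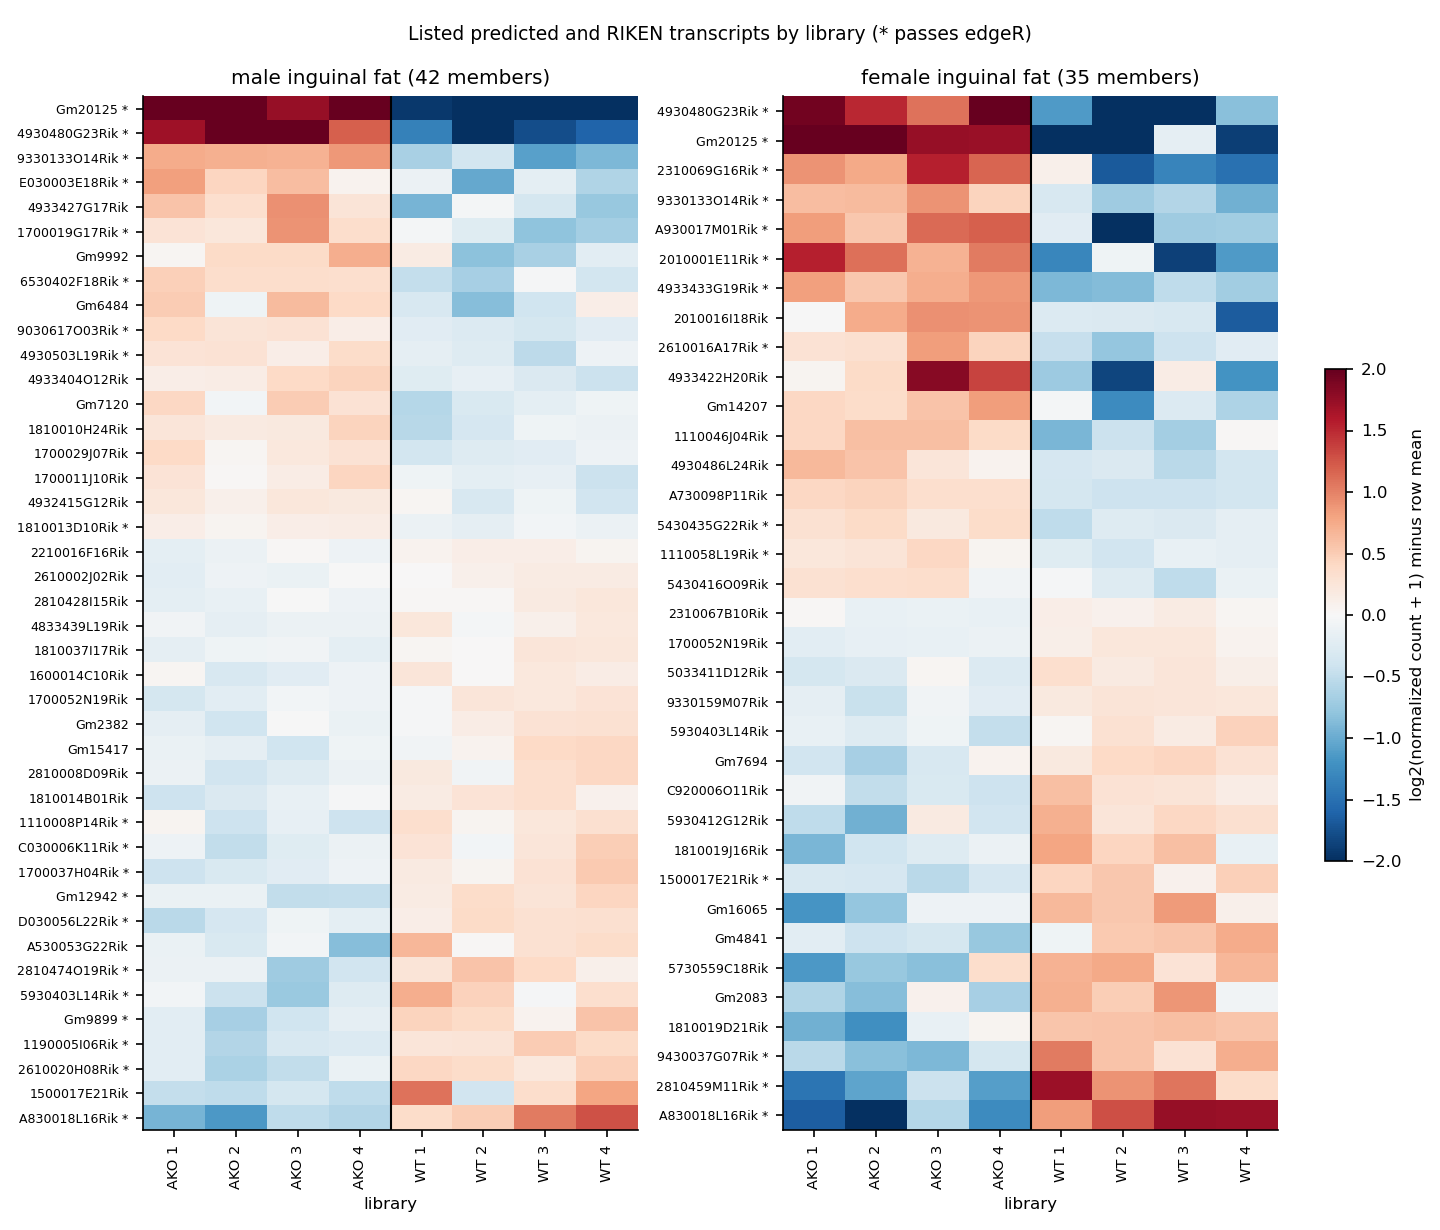
Every listed member of male inguinal fat (left, 42) and female inguinal fat (right, 35) by library, with the 4 AKO libraries left of the 4 WT libraries. Colour is log2(normalized count + 1) minus the row mean, rows run from the highest to the lowest authors' fold, and a star marks members past the edgeR test (20 male, 14 female).

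Listed in every fat table were 4 members, beside 180 other genes. They were the non-coding RNAs Gm20125, 4930480G23Rik and 9330133O14Rik, all higher in AKO, and the coding gene A830018L16Rik, lower in AKO. Gm20125 is a non-coding transcript on the minus strand of chromosome 10, from 16906427 to 17095807 (GRCm38). The 4930480G23Rik transcript is annotated as antisense, on the minus strand of chromosome 4 between 19979445 and 19985388. The first bases of the longest annotated transcript of each are given, since these RNAs had the largest rises of all members and are known by clone or model number only. They were read from GENCODE M21 on GRCm38, 5′ to 3′, with no base marked.
Gm20125: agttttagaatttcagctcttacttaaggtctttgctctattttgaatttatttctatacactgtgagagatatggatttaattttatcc
4930480G23Rik: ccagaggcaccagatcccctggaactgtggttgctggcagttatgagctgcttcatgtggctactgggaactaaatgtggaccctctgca

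Gm20125 was nearly silent in WT inguinal fat. In male inguinal fat it had normalized counts of 61.4, 58.0, 46.1 and 82.3 in AKO, against 2.68, 2.18, 1.72 and 2.21 in WT. These came from 345 reads over the 4 AKO libraries and 7 over the 4 WT libraries. The groups lay far apart, and the edgeR fit gave a 28.5-fold rise (log2 fold 4.83 ± 0.35 SE, edgeR adjusted p = 2.51e-05). Female inguinal libraries had 29.5, 33.3, 23.4 and 23.2 in AKO, against 0, 0, 5.43 and 0.981 in WT, from 151 and 5 reads. The fitted log2 fold there was 4.00 ± 0.60 SE (edgeR adjusted p = 0.00623). This female call held under every scaling and every left-out library, but not under every alternative. With so few WT reads the size of the fold is loose, and the authors' deposited table put it at 3.03 ± 0.29 in male inguinal, 1.67 ± 0.27 in female inguinal and 3.40 ± 0.26 in perigonadal fat on the log2 scale.

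4930480G23Rik followed the same order. Its normalized counts in male inguinal fat were 96, 126, 140 and 67.2 in AKO, against 10.7, 4.36, 7.76 and 8.85 in WT. Every AKO library exceeded every WT library, and the rise was 14-fold (log2 fold 3.80 ± 0.34 SE, edgeR adjusted p = 0.000124). Female AKO libraries had 153, 114, 85.1 and 240, against 17.4, 8.13, 4.07 and 21.6 in female WT libraries. The female rise was 11.6-fold (log2 fold 3.54 ± 0.46 SE, edgeR adjusted p = 0.00261). In perigonadal fat the authors' deposited table gave a mean of 181 and a log2 fold of 3.23 ± 0.21. On the same authors' scale the inguinal folds were 2.76 ± 0.27 in males and 1.94 ± 0.27 in females. A nearby gene also listed is Ttpa, which encodes the alpha-tocopherol transfer protein that handles vitamin E. It lies 22.6 kb away by GENCODE and 2.20 kb away by the RefSeq extent of 4930480G23Rik. Ttpa was listed in female inguinal fat alone among these tables, where it rose 3.62-fold, at 1133 ± 141 in AKO and 314 ± 25.5 in WT (SD, n = 4 each; log2 fold 1.86 ± 0.11 SE, edgeR adjusted p = 1.74e-05). Atp6v0d2, 56.8 kb from 4930480G23Rik on the same strand, was listed higher in female inguinal and perigonadal fat. The authors' deposited tables put it at 0.79 ± 0.26 and 1.32 ± 0.19. Its female libraries overlapped between groups, and it missed the edgeR threshold there (adjusted p = 0.124).

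9330133O14Rik, a non-coding RNA on chromosome 8 (122443656 to 122446476), was expressed in WT fat and rose in AKO. Male inguinal counts were 191, 188, 186 and 209 in AKO, against 72.5, 88.4, 53.4 and 60.9 in WT. The AKO libraries were tightly grouped above all WT libraries, with a 2.85-fold rise (log2 fold 1.51 ± 0.15 SE, edgeR adjusted p = 0.000286). Female counts were 314, 315, 379 and 277 in AKO, against 162, 124, 134 and 104 in WT, a 2.48-fold rise (log2 fold 1.31 ± 0.16 SE, edgeR adjusted p = 0.00186). The authors' deposited tables gave 1.15 ± 0.20 for perigonadal fat, beside 1.41 ± 0.15 for male and 1.20 ± 0.16 for female inguinal fat. Several genes around it were listed higher too. Mvd, an enzyme of the mevalonate pathway of sterol synthesis, lies 234 bp away and had a male inguinal log2 fold of 0.54 ± 0.14 SE (edgeR adjusted p = 0.0458). Snai3, a Snail-family zinc-finger factor 7.73 kb away, had 25.9 ± 6.02 normalized counts in AKO and 0.977 ± 1.14 in WT male inguinal fat (SD, n = 4 each; edgeR adjusted p = 0.000921). Rnf166, a RING-finger ubiquitin ligase 19.7 kb away, was listed higher in all 3 fat tables, at log2 folds of 0.58, 0.48 and 0.41 in male inguinal, female inguinal and perigonadal fat by the authors' deposited tables.

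A830018L16Rik spans chromosome 1 from 11414105 to 11975901 on the plus strand and is a coding gene without a settled function. In male inguinal fat it had 22.2, 18.9, 30.3 and 28.6 normalized counts in AKO, against 56.4, 61.1, 90.5 and 106 in WT. Female inguinal libraries had 12.6, 8.80, 27.8 and 16.8 in AKO, against 74.7, 103, 141 and 140 in WT. The groups did not overlap in either sex. It fell by 1.73 ± 0.25 on the log2 scale in males (edgeR adjusted p = 0.00273) and fell by 2.84 ± 0.34 in females (edgeR adjusted p = 0.00146). In perigonadal fat the authors' deposited table gave -1.98 ± 0.24. On the same authors' scale the inguinal folds were -1.42 ± 0.23 in males and -1.93 ± 0.25 in females.

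**Figure D3:**
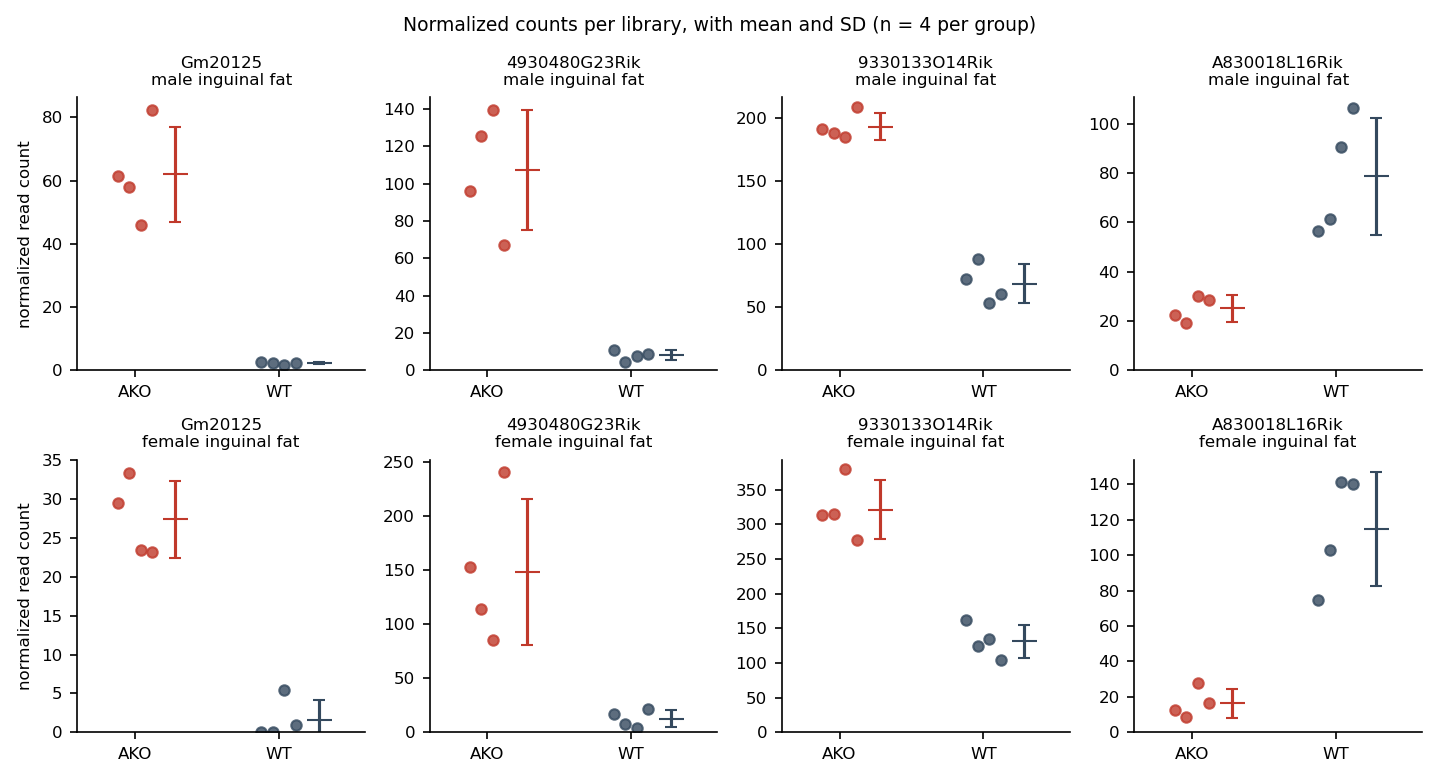
Normalized read counts per library (y axis, linear and starting at 0) of the 4 members listed in all fat tables, in male inguinal fat (top) and female inguinal fat (bottom), with AKO left of WT. Points are libraries and bars are the mean and SD (n = 4); Gm20125, 4930480G23Rik and 9330133O14Rik lie above WT in every AKO library and A830018L16Rik lies below.

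Whether the effect differed between the sexes was tested for the 7 members listed in both inguinal sets. The test was the interaction of sex and genotype over 290 shared genes. Only genes called in both sets could enter, so members listed in 1 inguinal set alone were not tested for a difference. Males and females were separate sets of animals by their numbers, so sex and set cannot be told apart. All 7 had the same direction in both sexes, as did the 283 other shared genes, and 0 passed (edgeR, 1.72% of the shared genes did), with 1 at an unadjusted p under 0.05. That was A830018L16Rik, whose log2 fold in males minus that in females was 1.13 ± 0.45 (SE; unadjusted p = 0.0198, edgeR adjusted p = 0.249). The same difference was 0.82 ± 1.07 for Gm20125, 0.26 ± 0.67 for 4930480G23Rik and 0.19 ± 0.23 for 9330133O14Rik. The other shared members were 1500017E21Rik, 1700052N19Rik and 5930403L14Rik, at -0.20 ± 0.34, -0.05 ± 0.14 and -0.22 ± 0.22. DESeq2's Wald test of the interaction called 0 of the 7 as well. The 95% interval of the difference ran between -1.27 and 2.91 for Gm20125 and between -1.04 and 1.57 for 4930480G23Rik, so the data do not show that these RNAs responded alike in the sexes.

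In all, 29 members were listed in at least 2 tables, 9 of them higher and 20 lower in every table that listed them. Male inguinal and perigonadal fat, taken from the same mice, shared 21 members, which is 50% of the inguinal and 35% of the perigonadal members. Other genes shared 46.3% and 33.5% of the same lists. Male and female inguinal fat shared 7 members (16.7% of the male and 20% of the female members, against 27.4% and 37.5% of other genes). Female inguinal and perigonadal fat shared 8 (22.9% and 13.3%, against 34.3% and 18.1% of other genes). All members shared by a pair of tables had 1 direction in both, as did 477 of 478, 283 of 283 and 252 of 259 other genes of the same pairs of fat tables.

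**Figure D4:**
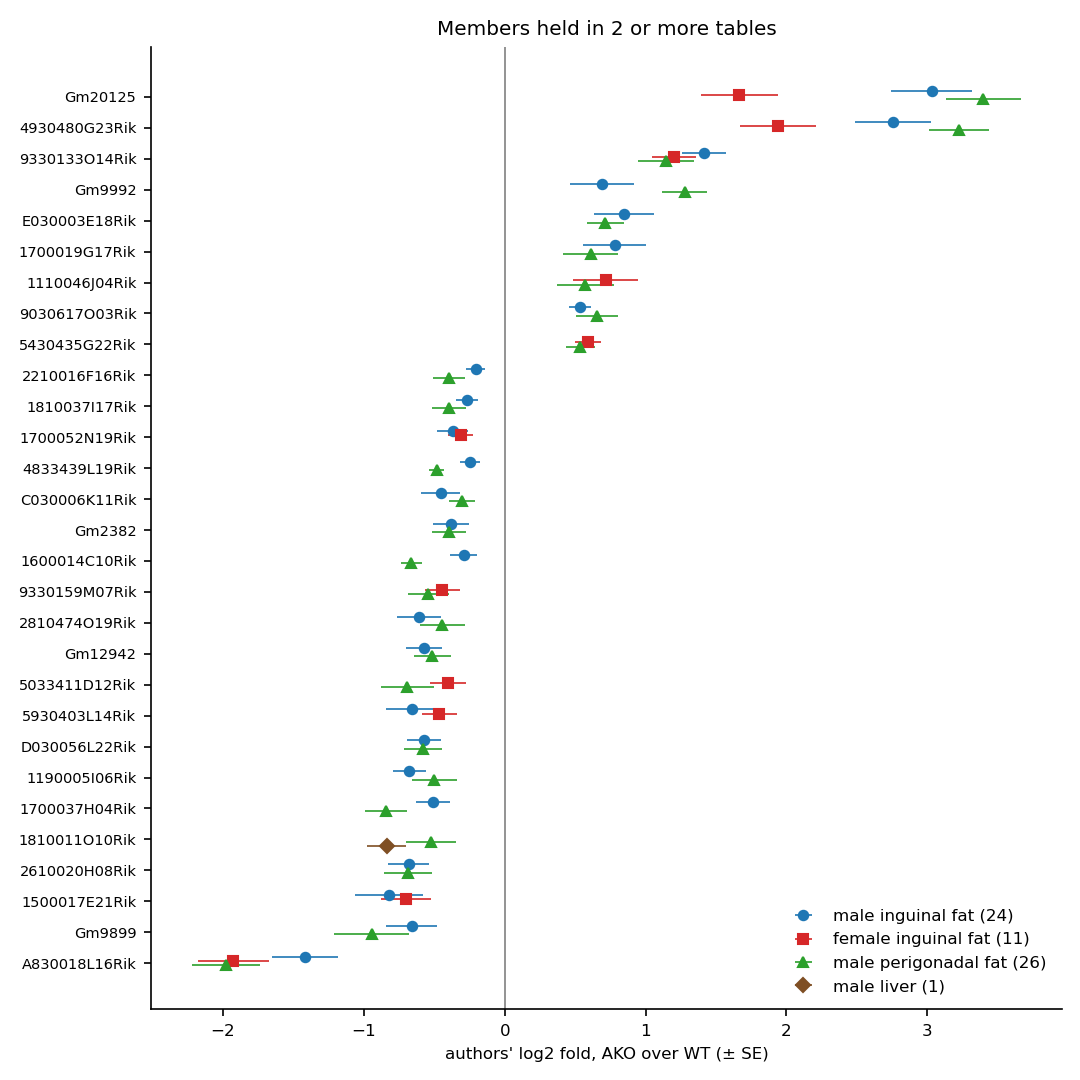
Authors' log2 fold of AKO over WT with its SE (x axis) for the 29 members listed in at least 2 tables (y axis), by table. Points right of 0 are higher in AKO, and no member changes sides between tables (9 are higher and 20 lower), as for 283 of 283 other genes shared by the inguinal sets.

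Among the coding members of the male depots, 9030617O03Rik is now Dglucy, the mitochondrial D-glutamate cyclase. It had 818 ± 60.7 normalized counts in AKO and 564 ± 23.1 in WT inguinal fat (SD, n = 4 each), a 1.45-fold rise (log2 fold 0.54 ± 0.07 SE, edgeR adjusted p = 0.00134). In perigonadal fat the authors' deposited table gave 0.66 ± 0.15. Gm9992, now Unc93a2 of the UNC93 membrane protein family, had 60.0 ± 11.8 in AKO and 35.8 ± 11.7 in WT inguinal fat with overlapping libraries (edgeR adjusted p = 0.0756), and a larger perigonadal log2 fold of 1.28 ± 0.16 in the authors' deposited table. 1700019G17Rik, now Nat8f4 of an N-acetyltransferase family of near-identical genes, rose in inguinal fat to 57.3 ± 13.7 in AKO, against 31.0 ± 7.99 in WT (log2 fold 0.92 ± 0.23 SE, edgeR adjusted p = 0.0492). This call did not hold with TMM (edgeR adjusted p = 0.051), with DESeq2 size factors (0.0673) or without any 1 of the 8 libraries (0.0578 to 0.163), and AKO replicate 3, at 77.6, stood above the other AKO libraries. Gm6484 is Angptl8, a hormone of fat and liver that acts on lipoprotein lipase. It had 256, 170, 279 and 238 normalized counts in AKO, against 145, 99.3, 136 and 197 in WT male inguinal fat. These groups overlapped in 1 library each, and it missed the edgeR threshold (log2 fold 0.70 ± 0.21 SE, edgeR adjusted p = 0.0867).

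More coding members were lower than higher. 2610020H08Rik (Rexo5, an RNA exonuclease) had 113 ± 18.6 in AKO and 188 ± 14.2 in WT male inguinal fat and fell by 0.72 ± 0.13 on the log2 scale (edgeR adjusted p = 0.0111). 2810474O19Rik (Resf1, which takes part in silencing retroelements) fell by 0.64 ± 0.14 (edgeR adjusted p = 0.0231), and Gm12942 (Tmem35b, a membrane protein) fell by 0.60 ± 0.12 (edgeR adjusted p = 0.0164). The call of 2810474O19Rik was lost without AKO replicate 4 or WT replicate 2 or 3 (edgeR adjusted p between 0.0571 and 0.0629) and that of Gm12942 without AKO replicate 3 or WT replicate 4 (0.051 and 0.0576). 1190005I06Rik, without a settled role, had 209, 162, 195 and 202 in AKO, against 287, 289, 346 and 316 in WT. It fell by 0.70 ± 0.10 (edgeR adjusted p = 0.00345), with no library of either group in the range of the other. D030056L22Rik, at 159 ± 21.2 in AKO and 236 ± 16.9 in WT, and 1700037H04Rik, at 1166 ± 109 in AKO and 1680 ± 239 in WT, passed as well (edgeR adjusted p = 0.0122 and 0.0151), the second not without AKO replicate 2 (0.0542). All 6 were also lower in perigonadal fat, at log2 folds between -0.84 (1700037H04Rik) and -0.44 (2810474O19Rik) in the authors' deposited table. 1600014C10Rik was the most abundant listed member in both male depots by the authors' mean, at 2982 and 4657. Its perigonadal log2 fold was -0.66 ± 0.07 in the authors' deposited table, while its inguinal libraries overlapped (edgeR log2 fold -0.30 ± 0.09 SE, adjusted p = 0.0797).

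Several members were listed in perigonadal fat and in neither inguinal set. 1110059M19Rik (Prr32, a proline-rich protein) stood at -1.98 ± 0.22 with a mean of 179 in the authors' deposited table (authors' adjusted p = 1.31e-17), as low as A830018L16Rik. Gm129 is Ciart, a repressor in the circadian clock, at -1.13 ± 0.26 in the authors' deposited table (authors' adjusted p = 0.00038). 2010107G12Rik is Slc23a4, a nucleobase transporter, at -1.17 ± 0.26 with a mean of only 22.4 in the authors' deposited table. 3425401B19Rik, a coding gene, was at 1.26 ± 0.29 in the authors' deposited table. The row 2900008C10Rik carries a symbol that RefSeq lists as a synonym of Bcor, the gene of a BCL6 corepressor. The authors' deposited table put it at 0.94 ± 0.22 with a mean of 36.5, and whether the row covers the whole Bcor gene is not given. Listed in both perigonadal and female inguinal fat, 5430435G22Rik (Rab7b, a small GTPase of late endosomes) was at 0.54 ± 0.10 in perigonadal fat by the authors' deposited table. It rose in female inguinal fat, at 852 ± 51.9 in AKO and 554 ± 52.2 in WT (SD, n = 4 each; log2 fold 0.61 ± 0.10 SE, edgeR adjusted p = 0.00865), but with table totals it missed the threshold (edgeR adjusted p = 0.0599).

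The antisense RNA 2610016A17Rik on chromosome 19 (25671134 to 25672253) rose in female inguinal fat. It had 771, 784, 1123 and 855 normalized counts in AKO, against 458, 367, 473 and 535 in WT, a 1.93-fold rise (log2 fold 0.95 ± 0.15 SE, edgeR adjusted p = 0.00958). The groups did not overlap. 1110058L19Rik, now Sdhaf4, an assembly factor of succinate dehydrogenase, rose 1.40-fold, at 575 ± 60.0 in AKO and 412 ± 27.4 in WT (edgeR adjusted p = 0.0465). That call was lost with TMM (edgeR adjusted p = 0.0961), DESeq2 size factors (0.3) and table totals (0.513), and without any 1 library other than AKO replicate 4 (0.0934 to 0.154). 2810459M11Rik, a coding gene without a settled role, fell by 2.08 ± 0.34 on the log2 scale, at 9.27, 12.6, 20 and 12.2 in AKO, against 92.1, 51.8, 58.4 and 35.3 in WT (edgeR adjusted p = 0.0116). 1500017E21Rik, an RNA antisense to Hectd2, fell by 0.79 ± 0.18 (edgeR adjusted p = 0.0442), a call lost without any 1 library (0.0578 to 0.149). In males it had a log2 fold of -0.98 ± 0.26 and missed the edgeR threshold (adjusted p = 0.0623). Counts of Gm2083 (Mup13), at 163 ± 51.6 in AKO and 327 ± 85.3 in WT with overlapping libraries, are uncertain, because the major urinary protein genes are near-identical copies that share reads.

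Some female members are epithelial by name or position. 1810019J16Rik is Kdf1, a keratinocyte differentiation factor, at 92.4 ± 20.6 in AKO and 168 ± 43.3 in WT (edgeR adjusted p = 0.105). 5730559C18Rik is Inava, an adaptor of epithelial and innate immune cells, at 58.2 ± 30.8 in AKO and 125 ± 17.7 in WT (edgeR adjusted p = 0.112). 1810019D21Rik overlaps Esrp2, an epithelial splicing regulator, and had 91.4 ± 37.8 in AKO and 189 ± 2.78 in WT (edgeR adjusted p = 0.0735). The libraries of Kdf1 and Inava overlapped between groups in 1 library each, and AKO replicate 4 stood above the other AKO libraries for Inava. Of 7 epithelial markers, 4 (Krt8, Krt7, Csn3 and Cldn7) were listed in this set, all lower, and the other 3 were not listed. The listed markers summed to between 6066 and 9434 normalized counts in AKO and between 14087 and 18245 in WT, without overlap, and their part in these members was not tested.

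Members and listed genes within 5 kb of them mostly had the same direction, as did most other genes with such a neighbour. At this distance, 5 of 5 members of male inguinal fat had the direction of their nearest listed gene, as did 3 of 4 in female inguinal fat and 4 of 4 in perigonadal fat, against 80%, 84.6% and 66.9% of other genes with such a neighbour. The female count includes 2310069G16Rik and A930017M01Rik as neighbours of each other. Within 50 kb it was 5 of 9, 6 of 8 and 10 of 10 members, against 66.9%, 77.1% and 67.9% of other genes. Within 200 kb it was 8 of 17, 9 of 14 and 15 of 19 members, against 67.3%, 73.6% and 63.1% of other genes. By annotation, 46 of the 105 members overlap a coding gene, 35 of them on the opposite strand. The library kit keeps strand, but no source used here says whether the counting did, so reads of overlapping genes may be shared.

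Gm9899 overlaps Kcnk3, the gene of the potassium channel TASK-1, on the opposite strand of chromosome 5. Both fell in male inguinal fat, Gm9899 to 47.5 ± 7.19 in AKO, against 79.3 ± 11.4 in WT (log2 fold -0.73 ± 0.17 SE, edgeR adjusted p = 0.0381), and Kcnk3 to 807 ± 92.2 in AKO, against 1241 ± 157 in WT (log2 fold -0.62 ± 0.11 SE, edgeR adjusted p = 0.00743). The call of Gm9899 was lost without any 1 library other than WT replicate 3 (edgeR adjusted p between 0.0551 and 0.129). E030003E18Rik overlaps Aldh1a1, which encodes a retinaldehyde dehydrogenase. E030003E18Rik rose to 207 ± 44.2 in AKO, against 107 ± 29.3 in WT (edgeR adjusted p = 0.0244), and Aldh1a1 had 2043 ± 400 in AKO and 1333 ± 308 in WT with overlapping libraries (edgeR adjusted p = 0.0829). Without AKO replicate 1, 2 or 3 or WT replicate 4 the call of E030003E18Rik was lost (edgeR adjusted p between 0.057 and 0.0839). 6530402F18Rik shares a strand with the netrin gene Ntng2 and overlaps it, and both rose in male inguinal fat (log2 folds 0.73 ± 0.13 and 0.76 ± 0.14 SE, edgeR adjusted p = 0.0111 and 0.0106). 4933427G17Rik starts 197 bp from Cdr2, and had 31.4 ± 6.84 in AKO and 15 ± 4.51 in WT (edgeR adjusted p = 0.0682), while Cdr2 rose (log2 fold 0.77 ± 0.12 SE, edgeR adjusted p = 0.00538).

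The female members 2310069G16Rik and A930017M01Rik, a pseudogene, overlap each other and Sybu, the gene of the kinesin adaptor syntabulin, on chromosome 15. 2310069G16Rik had 35.4, 32.1, 56.4 and 42.5 in AKO, against 19.9, 5.08, 6.79 and 5.88 in WT (log2 fold 2.37 ± 0.40 SE, edgeR adjusted p = 0.0126). A930017M01Rik had 23.7 ± 4.91 in AKO and 6.41 ± 3.27 in WT (edgeR adjusted p = 0.0285), and Sybu had 366 ± 27.0 in AKO and 224 ± 9.84 in WT (edgeR adjusted p = 0.00823). All 3 rose. The call of 2310069G16Rik was lost without WT replicate 2, 3 or 4 (edgeR adjusted p between 0.0503 and 0.0599), and that of A930017M01Rik without any 1 library other than AKO replicates 2 and 4 (0.0528 to 0.0844). C920006O11Rik was the exception in direction, with 148 ± 19.7 in AKO and 232 ± 32.2 in WT (log2 fold -0.64 ± 0.15 SE, edgeR adjusted p = 0.0585). Gsta4, a glutathione transferase 3.90 kb away on the same strand, rose (log2 fold 0.66 ± 0.13 SE, edgeR adjusted p = 0.0269).

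In perigonadal fat, B430212C06Rik and Cidea, a lipid droplet protein gene of thermogenic fat, overlap on opposite strands. The authors' deposited table gave log2 folds of -1.24 ± 0.25 for B430212C06Rik and -1.60 ± 0.28 for Cidea. 2410018M08Rik and Phkg1, a phosphorylase kinase subunit, were at -0.53 ± 0.18 and -0.97 ± 0.18 in the authors' deposited table, and Gm1661 and Tmem53 at 0.96 ± 0.27 and 0.60 ± 0.11. 2310011J03Rik and Pcsk4, a proprotein convertase gene 746 bp away, were at -0.37 ± 0.10 and -0.56 ± 0.19 in the authors' deposited table. 1300015D01Rik (Ctcflos) lies 19.8 kb from Pck1, the enzyme of glyceroneogenesis, and the authors' deposited table gave -0.48 ± 0.15 and -1.53 ± 0.16.

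**Figure D5:**
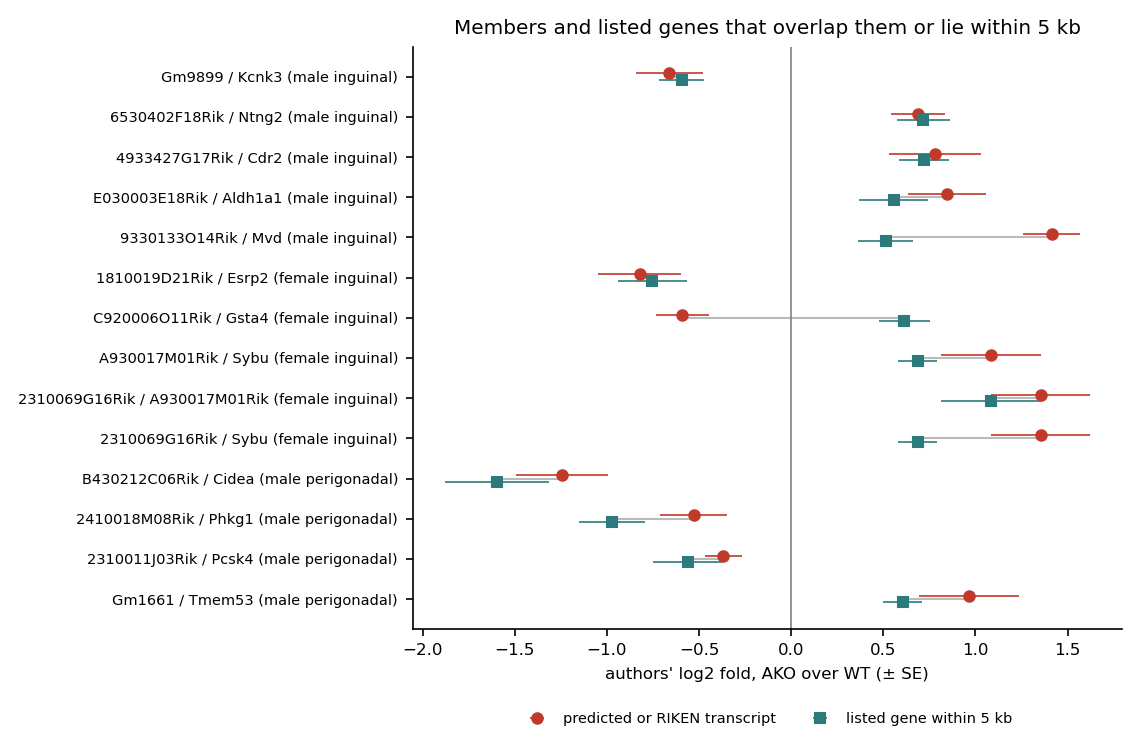
Authors' log2 fold of AKO over WT with its SE (x axis) for members (circles) and the listed genes that overlap them or lie within 5 kb (squares), 1 pair to a row with its table. Of these pairs, C920006O11Rik and Gsta4 alone lie on opposite sides of 0.

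On chromosome 9, members near Zfp949 were lower while Zfp949, a zinc-finger gene, was listed higher in all 4 tables. Female 9430037G07Rik, 24.3 kb away, had 18.9 ± 3.54 in AKO and 48.4 ± 10.7 in WT (log2 fold -1.33 ± 0.25 SE, edgeR adjusted p = 0.02), while Zfp949 had 1261 ± 347 in AKO and 415 ± 53.8 in WT (edgeR adjusted p = 0.00136). The call of 9430037G07Rik was lost without AKO replicate 1 or 2 or WT replicate 1, 2 or 4 (edgeR adjusted p between 0.0571 and 0.0659). Gm2382 (Mthfsl), 118 kb away, was listed lower in both male depots (-0.38 and -0.39 on the log2 scale in the authors' deposited tables).

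Within their extents 7 members hold a microRNA of the RefSeq table, and 3 of them, all listed in perigonadal fat, host well-studied ones. 2610203C20Rik is Mir100hg, host of miR-100, let-7a-2 and miR-125b-1, and 2810055G20Rik is Mir99ahg, host of miR-99a, let-7c-1 and miR-125b-2. F630028O10Rik contains Mir223, a microRNA gene active in myeloid cells. The mature RefSeq sequences (GRCm38.p6) are given with their seeds in capitals. miR-100 of 1 host and miR-99a of the other share a seed, both hosts hold miR-125b, let-7c lies in Mir99ahg, and miR-223 belongs to neither host.
mmu-miR-100-5p: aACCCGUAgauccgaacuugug
mmu-miR-99a-5p: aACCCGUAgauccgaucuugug
mmu-miR-125b-5p: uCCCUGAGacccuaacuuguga
mmu-let-7c-5p: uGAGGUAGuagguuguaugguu
mmu-miR-223-3p: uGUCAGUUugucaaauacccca

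The paralogous hosts had opposite signs. The authors' deposited table gave 0.29 ± 0.10 for 2610203C20Rik (authors' adjusted p = 0.0381) and -0.54 ± 0.19 for 2810055G20Rik (authors' adjusted p = 0.0479). F630028O10Rik was at 0.55 ± 0.16 (authors' adjusted p = 0.0117, the authors' deposited table). In the same depot 3 of 7 macrophage markers were listed, all higher, with log2 folds of 0.58 (Cd68), 0.45 (Csf1r) and 0.38 (Mrc1) in the authors' deposited table, and their part in this member was not tested. Poly(A) RNA measures the host transcripts, and mature microRNAs were not measured.

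Promoter windows of RefSeq (GRCm38.p6) were found for 77 of 105 members, in 90 windows, and searched on both strands for the BCL6 or STAT palindrome TTCNNNGAA and its BCL6 form TTCCTNGAA, each match of the second being a match of the first. The palindrome was in 6.67% of member windows and 8.3% of all 32851 windows, and the BCL6 form in 2.22% and 1.59%. The members with the BCL6 form were 1810037I17Rik (window chr3:122924147-122924446, plus strand) and 4930486L24Rik (chr13:60864367-60864666, minus strand). Their windows are shown because they are the only ones that held it, with the motif in capitals. It starts at -119 and -108 relative to the start site that each RefSeq window was set around. The GENCODE starts differ, at 122924203 for 1810037I17Rik and 60864475 for 4930486L24Rik. The motif of 1810037I17Rik lies downstream of its GENCODE start.
1810037I17Rik: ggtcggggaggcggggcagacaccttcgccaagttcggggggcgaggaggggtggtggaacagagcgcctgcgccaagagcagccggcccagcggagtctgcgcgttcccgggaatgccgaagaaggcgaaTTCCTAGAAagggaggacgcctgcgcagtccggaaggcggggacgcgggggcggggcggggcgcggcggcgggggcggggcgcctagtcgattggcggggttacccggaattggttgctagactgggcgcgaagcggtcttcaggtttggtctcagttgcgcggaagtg
4930486L24Rik: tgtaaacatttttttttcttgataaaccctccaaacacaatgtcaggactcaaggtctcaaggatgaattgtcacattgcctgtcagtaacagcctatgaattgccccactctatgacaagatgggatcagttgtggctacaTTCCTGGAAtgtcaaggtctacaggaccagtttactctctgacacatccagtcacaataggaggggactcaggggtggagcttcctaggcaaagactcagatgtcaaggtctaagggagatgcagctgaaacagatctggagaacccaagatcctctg

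Both missed the edgeR threshold, with opposite signs. 1810037I17Rik, a small coding gene, had 725 ± 31.5 in AKO and 870 ± 71.8 in WT male inguinal fat (log2 fold -0.27 ± 0.07 SE, edgeR adjusted p = 0.0519) and -0.40 ± 0.12 in perigonadal fat in the authors' deposited table. 4930486L24Rik, a coding gene of the cathepsin type, had 83.9 ± 15.6 in AKO and 48.5 ± 3.57 in WT female inguinal fat (log2 fold 0.79 ± 0.19 SE, edgeR adjusted p = 0.0687).

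In liver the only member was 1810011O10Rik, now Tcim, a small regulator of transcription on chromosome 8 (24437180 to 24438984). It had 286, 289, 418 and 315 normalized counts in AKO, against 741, 615, 544 and 593 in WT. No AKO library reached the WT range, as held for all 34 listed liver genes with counts (100%). The edgeR log2 fold was -0.93 ± 0.14 SE (unadjusted p = 5.88e-05, edgeR adjusted p = 0.112), so 0 of 1 member passed, where 8.82% of listed liver genes did, and DESeq2's Wald test called it (DESeq2 adjusted p = 1.93e-06). Among listed liver genes 75.7% were lower in AKO and 40.5% had a fold of at least 1.5. Without AKO liver replicate 4 the log2 fold was -0.92, and without AKO liver replicate 3 it was -1.07 and passed (edgeR adjusted p = 0.0347). Scaling on the few listed liver genes alone moved it either way: TMM and DESeq2 size factors gave -0.61 (edgeR adjusted p = 1 for both), and table totals gave -1.04 (edgeR adjusted p = 0.00408). The authors' deposited table gave -0.84 ± 0.14 in liver and -0.52 ± 0.18 in perigonadal fat, in different mice, so Tcim was lower in both.

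Further members met the rule for named genes. 4833439L19Rik, an abundant coding gene, was lower in both male depots, at 1546 ± 48.3 in AKO and 1845 ± 151 in WT inguinal fat (SD, n = 4 each; edgeR adjusted p = 0.0591) and at a perigonadal log2 fold of -0.48 ± 0.06 in the authors' deposited table (authors' adjusted p = 5.44e-16). C030006K11Rik fell in male inguinal fat by 0.48 ± 0.12 on the log2 scale (edgeR adjusted p = 0.048) and stood at -0.30 ± 0.09 in perigonadal fat in the authors' deposited table. Its inguinal call was lost without any 1 library other than WT replicate 2, at edgeR adjusted p between 0.0638 and 0.149. 2210016F16Rik stood at -0.21 ± 0.07 and -0.39 ± 0.11 in male inguinal and perigonadal fat in the authors' deposited tables. The non-coding A530053G22Rik had 47.5 ± 10.9 in AKO and 75.9 ± 14 in WT male inguinal fat (edgeR adjusted p = 0.108).

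Shared between female inguinal and perigonadal fat were 9330159M07Rik, 5033411D12Rik (Sugct, a CoA transferase of glutarate metabolism) and 1110046J04Rik. Their log2 folds were -0.44, -0.40 and 0.72 in female inguinal fat and -0.54, -0.69 and 0.57 in perigonadal fat in the authors' deposited tables. The female libraries of all 3 were apart without passing edgeR (adjusted p = 0.11 for 9330159M07Rik, 0.157 for 5033411D12Rik and 0.0855 for 1110046J04Rik).

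Other female members that missed the edgeR threshold included some with large folds. 4933422H20Rik (Trim80) had 37.0 ± 20.8 in AKO and 9.97 ± 6.49 in WT with overlapping libraries (edgeR adjusted p = 0.106). 2010016I18Rik had 164 ± 43.2 in AKO and 70.2 ± 25.9 in WT (edgeR adjusted p = 0.0722), and Gm14207, antisense to the Notch ligand gene Dll4, had 34.5 ± 5.30 in AKO and 16.3 ± 5.73 in WT (edgeR adjusted p = 0.0752). The pseudogene A730098P11Rik (Morf4l1-ps1) had 51.4, 52.2, 48.6 and 48.3 in AKO, against 29.9, 28.4, 28.5 and 29.4 in WT, groups well apart (edgeR adjusted p = 0.057). It is a processed pseudogene and overlaps Lpp on the same strand, so its reads may be shared with Lpp or with the gene it is named for. Lpp was listed in both male depots and not in this set. Lower in AKO were Gm16065 (Tbx3os2), with 28.2 ± 10 in AKO and 58.6 ± 12.4 in WT (edgeR adjusted p = 0.111), and Gm4841, with 31.3 ± 4.96 in AKO and 58.7 ± 13.4 in WT (edgeR adjusted p = 0.0663). In perigonadal fat the authors' deposited table gave -1.17 ± 0.28 for Gm6936, -0.79 ± 0.21 for Gm6277, -0.78 ± 0.20 for Gm5460 and 0.63 ± 0.19 for Gm19705.

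Outside the rule for named genes, male inguinal fat held 8 members listed higher at authors' log2 folds between 0.22 and 0.53 and 6 listed lower between -0.44 and -0.23. Outside it, the female inguinal table held 4 higher (0.44 to 1.04) and 3 lower (-0.64 to -0.21) by the authors' deposited tables. For perigonadal fat the same counts were 10 higher (0.24 to 1.16) and 11 lower (-0.60 to -0.18) in the authors' deposited table. These counts include the members described above after their values were seen, such as the microRNA hosts. The highest of these folds, of 4933417O13Rik in perigonadal and 2010001E11Rik in female inguinal fat, came with means of 12.2 and 10.7. As a comparison by name alone, 18 other listed genes carry accession-like placeholder names, 3 have names of non-coding RNA genes and 0 have pseudogene names. Of those 3, Dio3os and the imprinted Rian stood at 1.21 ± 0.27 and -0.46 ± 0.12 in perigonadal fat in the authors' deposited table. Zbtb8os, at 0.38 ± 0.12 in female inguinal fat by the authors' deposited table, is annotated as protein coding despite its name.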

How the data were processed

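Trizol and RNeasy columns gave the RNA, and poly(A) libraries were made with a stranded kit, as the labels' protocols state. STAR, DESeq2 and mm10 are named, without versions, in the submitters' processing notes. The counter, its strand setting and the annotation were not given in the sources used here. Per the file headers, the authors deposited read counts (whole numbers) for each inguinal set and for liver. For all 4 comparisons the authors deposited the mean normalized count (a signal), the log2 fold change and its SE, and the adjusted p-value, with the unadjusted p-value for the 3 fat comparisons. The deposited liver counts held 3 repeated rows, which were dropped. The sign of the perigonadal fold was read as AKO over WT, as in the other tables.

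The authors' size factors were solved from counts and deposited means. Normalized counts are counts divided by them. Counts of all listed genes were tested with edgeR 4.0.16 in R 4.3.3 (glmQLFit in legacy mode, glmQLFTest, no filter, no covariate), AKO against WT within each tissue and sex, with Benjamini-Hochberg adjustment at 0.05 over the number of genes the authors tested. SE is the log2 fold over the root of F. The code was tested on simulated data. Alternatives were TMM, DESeq2 1.42.0 and table-total scaling, DESeq2's Wald test, a filter of 10 counts in 4 libraries, a replicate term, adjustment over the table alone and leaving out each library. Authors' folds were smaller than edgeR folds where counts were low (median ratio 0.668 for female members with a mean under 50).

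Members and lists were chosen with earlier results of these data known. Named members are the liver member, those in at least 2 tables, the 10 largest rises and falls per fat table with a mean of at least 20, and those within 5 kb of another listed gene. Others (the microRNA hosts, 1300015D01Rik, 1110058L19Rik, 2010001E11Rik, 4933417O13Rik) were named after their values were seen, as were the genes beside members. Gene classes and positions are from GENCODE M21 (99 members) or RefSeq GRCm38.p6 (6 members), on GRCm38, the assembly of mm10, and present symbols are RefSeq's. Promoters and microRNAs are from RefSeq.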

Additional observations from a re-analysis of the deposited data

Results flagged for a closer look

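In 6 of 114 groups of 4 libraries, those of the members that met the rule for named genes, the highest or lowest library stood apart from the other 3 by Dixon's criterion, which chance alone reaches in about 5% of groups. In male inguinal fat, 6530402F18Rik had 214 normalized counts in AKO replicate 1, with the other AKO libraries between 192 and 196. 1700019G17Rik had 77.6 in AKO replicate 3 of the same set, with the others between 48.2 and 52.9. In female inguinal fat, 5730559C18Rik (Inava) had 104 in AKO replicate 4, with the others between 36.3 and 47.8, and 1500017E21Rik had 42.5 in AKO replicate 3, with the others between 49.0 and 49.7. 2310069G16Rik had 19.9 in WT replicate 1, with the other WT libraries between 5.08 and 6.79, and 2010016I18Rik had 31.4 in WT replicate 4, with the others between 81.5 and 84.7. None of these libraries stood apart for more than 1 member.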

How the results depend on the processing

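No member with counts changed direction under any alternative. The counts of passing members below stand without those of all listed genes under the same alternative. In male inguinal fat the counts of 9 higher and 11 lower became 15 and 20 with DESeq2's Wald test, 18 and 24 with adjustment over the table alone, and 23 lower with DESeq2 size factors of the table. In female inguinal fat the 10 higher and 4 lower became 17 and 18 with adjustment over the table alone. The female lower count became 11 with TMM, 13 with DESeq2 size factors of the table, 14 with table totals and 15 with DESeq2's Wald test. TMM, DESeq2 size factors and table totals moved the median edgeR log2 fold of all female listed genes to 0.21, 0.15 and 0.09, against 0.30 as reported, and that of the members to -0.30, -0.37 and -0.42, against -0.21. As above, such a median of called genes mainly shows which direction holds the majority. In liver the lower count became 1 with table totals, DESeq2's Wald test and adjustment over the table alone. TMM moved the median of all liver genes to -0.04, against -0.36 as reported.

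Leaving out 1 library, males had 5 to 7 higher (5 without AKO replicate 1) and 6 to 12 lower (6 without AKO replicate 2, 3 or 4 or WT replicate 4), females 5 to 12 higher (5 without WT replicate 3 or 4, 6 without AKO replicate 1 or WT replicate 1 or 2) and 2 to 6 lower (2 without AKO or WT replicate 1 or 2), and liver 0 to 1 lower (1 without AKO replicate 3). Of the 20 male and 14 female calls, 9 and 4 held under every alternative, among them 4930480G23Rik, 9330133O14Rik and A830018L16Rik in both, and 9 and 7 held under every left-out library. Gm20125 held under every alternative in males, and in females under every left-out library only and every scaling. Perigonadal members in the authors' deposited table numbered 13 higher and 22 lower at an adjusted p under 0.01. Counts of all listed genes at that cut are not given, so the split cannot be called particular to the members. At 1.5-fold or more the perigonadal members numbered 13 higher and 14 lower, where all listed genes numbered 256 and 264.

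Replicate numbers were not treated as pairs. Deviations of libraries with the same number correlated between 0.06 and 0.24 in male inguinal fat, between -0.30 and 0.18 in female inguinal fat and between -0.58 and 0.16 in liver. With other numbers the ranges were -0.20 to 0.19, -0.36 to 0.45 and -0.53 to 0.38. In the same order, 2, 1 and 0 AKO libraries correlated best with their own number. For males these values do not settle whether the numbers pair the samples. With the replicate block, 8 higher and 15 lower members passed in males, 4 higher and 1 lower in females and 0 in liver. Depth limits the members near zero: 2 male and 6 female members had under 30 reads over the 4 WT libraries. The tables hold only called genes, so the spread between mice was estimated from a selected set, and perigonadal fat could not be retested.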
